A study of Mus musculus with 8 samples.

Results

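Mitochondrial ribosomal protein genes, taken as all genes whose symbol starts with Mrpl or Mrps and is not that of a pseudogene, were described in mouse white quadriceps. The table of 54091 genes held 77 such genes, and 76 of them (47 Mrpl and 29 Mrps) reached 10 normalized reads in 4 or more of the 8 libraries. A normalized read is a read count divided by 1 factor per library. The study compared muscle from mice with and without the mitochondrial acyl-CoA thioesterase Acot2 in muscle, by RNA sequencing of stranded libraries from total RNA. The 4 Loxp libraries came from Loxp/Loxp mice, for which no Cre is named, and the 4 Cre libraries from mice labelled CKM Cre with Acot2 knocked out in muscle. Ckm encodes the creatine kinase of muscle fibres, so a Ckm-driven Cre acts in striated muscle fibres and not in the fat, vessel or connective tissue cells that a piece of muscle also holds. No Cre-only control group was analysed here. All mice were males aged 11 to 14 weeks that were fed chow (Purina 5001), and the muscle was taken in the morning. Each library has its own animal number.

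Mitochondria carry ribosomes of their own, which translate the few proteins encoded in mitochondrial DNA, all of them parts of the respiratory chain and ATP synthase. Their ribosomal RNAs come from mitochondrial DNA, whereas every protein of the large subunit (mostly Mrpl genes) and the small subunit (mostly Mrps genes) is encoded in the nucleus, made in the cytosol and imported. In skeletal muscle, oxidative fibres hold more mitochondria than glycolytic fibres, and defects of several of these genes cause human mitochondrial disease.

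Library depth ran from 30415437 to 48834289 recovered reads. Acot2 had 149 to 251 normalized reads in the Loxp libraries and 42.8 to 53.7 in the Cre libraries, in the direction of the labels. The 4 markers of fast glycolytic fibres summed to between 3147160 and 4192459 normalized reads in each library, which matched the label of white muscle, but the libraries differed in other markers. Myh2, the myosin of fast oxidative fibres, had 797 normalized reads in Loxp replicate 2, 4408 to 7832 in Loxp replicate 1 and Cre replicates 1 and 2, and 50366 to 73690 in the others. Of the 7 slow fibre markers, 7 lay higher on average in Cre, and their sum ran from 1697 to 2496 in Loxp and from 1610.3 to 17892 in Cre, with Tnni1 listed at 0 in 1 Cre library. Of the 6 adipocyte markers, 0 lay higher in Cre, and their sum ran from 2467 to 19799.8 in Loxp and from 2507 to 3359 in Cre, with no marker at 0. In such bulk samples, fewer cells of a type and less RNA per cell cannot be told apart.

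Per kilobase of transcript, the mitochondrial ribosomal protein genes spanned a 65.5-fold range of levels, from 87.9 normalized reads per kilobase for Mrps25 to 5755 for Mrpl42, with a median of 499. Length was that of the longest principal protein-coding transcript in the annotation, and which transcript the muscle used was not tested. The median was 623 for Mrpl genes and 407 for Mrps genes. Mrpl42, a protein found only in mitochondrial ribosomes, had 5307 to 6412 normalized reads per kilobase over the 8 libraries, above every other member in every library. Mrps21, the counterpart of bacterial S21, came next with 2583 to 3196, followed by Mrpl30 with 1820.2 to 2389.9. Those last 2 ranges did not overlap. Mrpl18, a protein of the central protuberance that joins the subunits, had a mean of 1718, Mrpl33 1616 and Mrpl54 1515, and the ranges of these 3 overlapped each other.

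**Figure D1:**
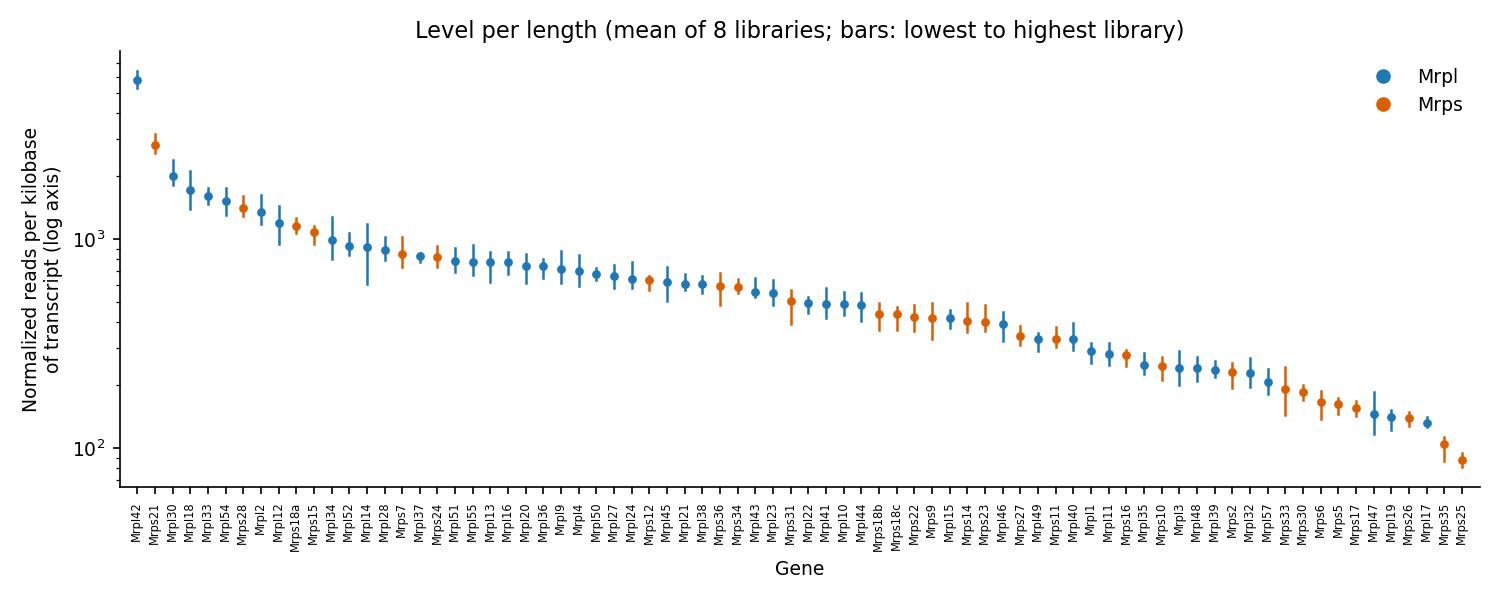
Levels of the 76 Mrpl and Mrps genes in normalized reads per kilobase of transcript (log axis), ordered by level. Points are means over the 8 libraries and bars run from the lowest to the highest library; Mrpl42 stands at 5755 and Mrps25 at 87.9.

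At the low end, Mrps25 had 80.7 to 94.6 normalized reads per kilobase and Mrps35 86.3 to 112, with overlapping ranges. Mrpl17 (mean 132), Mrps26 (139), Mrpl19 (140.4) and Mrpl47 (146) followed, and their ranges overlapped as well. This order depends on the transcript length taken, which was 7300 bases for Mrpl17, 6073 for Mrps25 and 666 for Mrpl42. Before division by length, Mrpl17 had a mean of 965 normalized reads, above the members' median of 723. The other genes named in this low group lay below that median. Undivided means ran from 140 for Mrps6 to 3833 for Mrpl42. Mrps25 and Mrps35 are small subunit proteins with no bacterial counterpart, and Mrpl17 and Mrpl19 are large subunit proteins shared with bacteria. Some of these levels rest on reads that other genes could share: 69.8% of the exon bases of Mrps25 face Nr2c2 on the opposite strand, and 36.0% of those of Mrpl19 face Gcfc2. Whether the counting used the strand is not stated in the labels.

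No mitochondrial ribosomal protein gene passed the test for a difference between Cre and Loxp muscle. Of the 76 genes, 0 passed an adjusted p of 0.05 in limma, against 0.0147% of the 13638 genes tested, and limma-voom on the recovered reads also called 0. At an unadjusted p under 0.05 the count was again 0 of 76, against 2.91% of all tested genes. The 4 Cre libraries lay above all 4 Loxp libraries for 0 members (0.924% of all tested genes) and below them for 0 members (0.997%). The smallest unadjusted p was 0.0651, with an adjusted p of 0.9995, both for Mrps22. Over all members the 95% confidence limits of the log2 difference reached from -0.32 to 0.47, so a change beyond these bounds was outside the interval of every member.

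The differences were small and mostly on 1 side. Of the 76 members, 67 had a log2 difference (Cre minus Loxp) above 0, 42 of 47 Mrpl and 25 of 29 Mrps, against 51.7% of all tested genes. Their median was 0.068, with 0.066 for Mrpl and 0.075 for Mrps, against 0.0049 over all tested genes. Like gene sets leaned the same way, so the lean was not particular to the members. Above 0 lay 32 of 35 complex I subunit genes (median 0.095) and 72 of 86 cytosolic ribosomal protein genes (median 0.045). In each library, the median deviation of the members from their own means averaged -0.035 ± 0.095 in Loxp and 0.036 ± 0.093 in Cre (SD, n = 4 each), and the groups overlapped. Members share their libraries and moved together (described after the gene groups), so 67 genes are not 67 separate observations. Without Cre replicate 3 the median was 0.029 and 50 members lay above 0. Without Loxp replicate 2 these values were 0.023 and 52. Summed over the members, Loxp libraries had 63996 ± 4358 normalized reads and Cre libraries 67109 ± 4533 (SD, n = 4 each), and the groups overlapped.

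**Figure D2:**
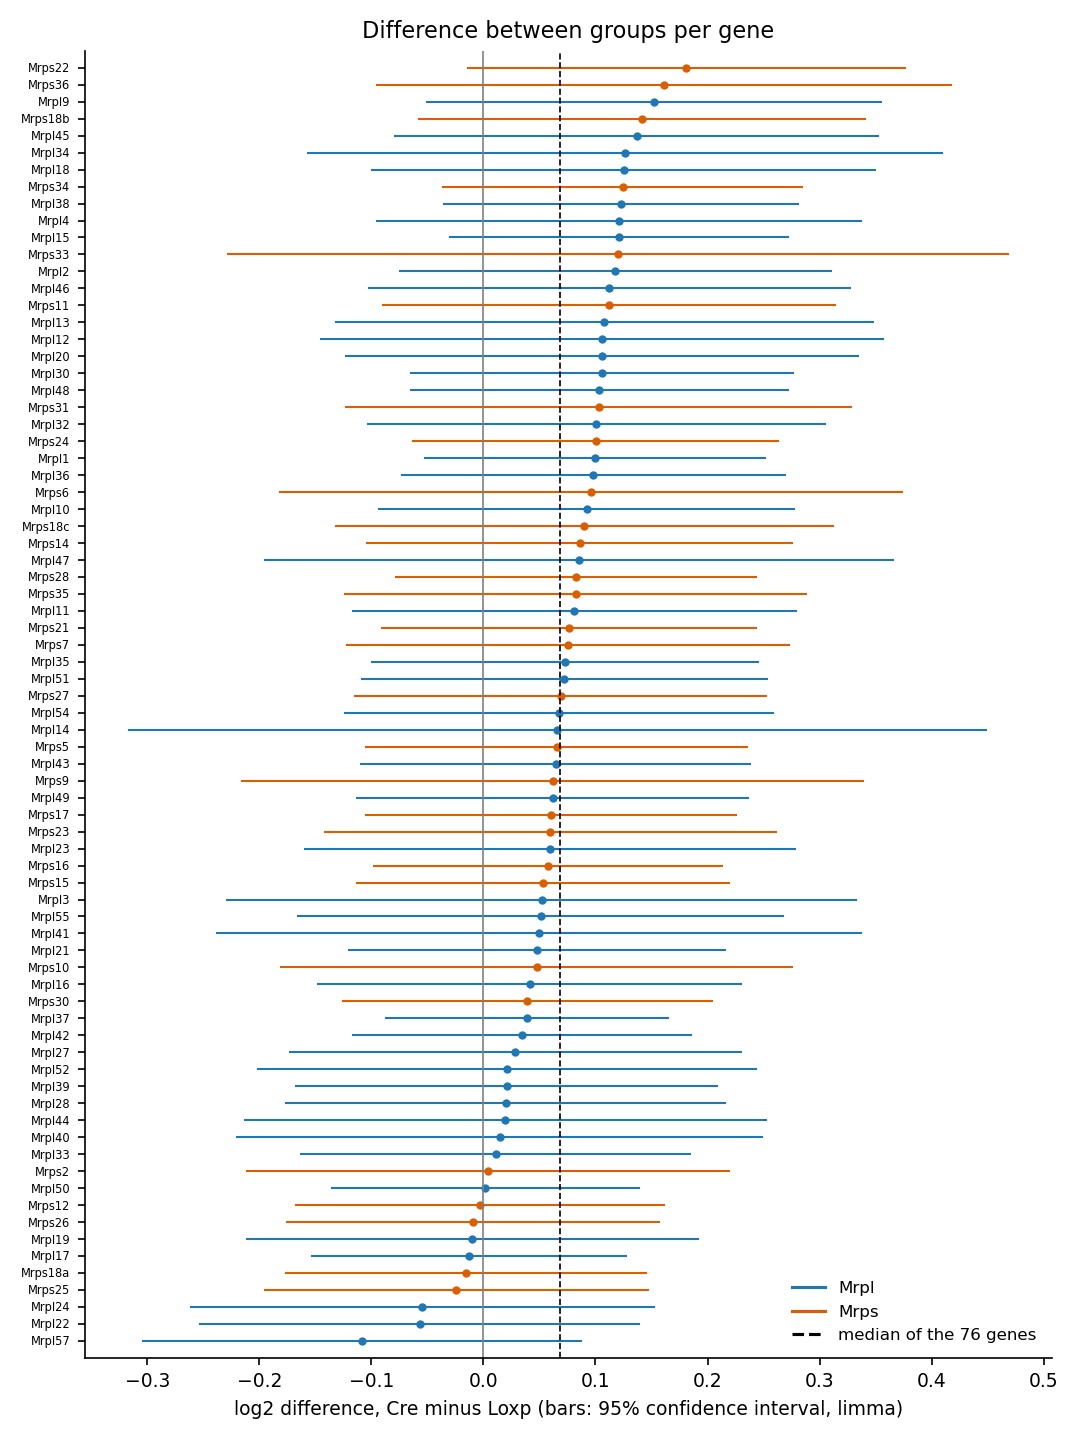
Log2 difference between the group means (Cre minus Loxp) for each of the 76 genes, with limma's 95% confidence interval as a bar and the median of 0.068 as a dashed line. Every interval includes 0; the points run from -0.11 (Mrpl57) to 0.18 (Mrps22).

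Mrps22, a small subunit protein without a bacterial counterpart and a human disease gene, had 454, 436, 503 and 515 normalized reads in Loxp replicates 1 to 4 and 492, 578, 578 and 517 in Cre replicates 1 to 4. Only Cre replicate 1 fell within the Loxp range. Its log2 difference was 0.18 ± 0.089 (SE; limma, unadjusted p = 0.0651, adjusted p = 0.9995). Mrpl15, a large subunit protein, had 1583, 1608, 1871 and 1663 normalized reads in Loxp replicates 1 to 4 and 1768, 1739, 1932 and 1866 in Cre replicates 1 to 4. Loxp replicate 3 exceeded 3 of the 4 Cre libraries, and the log2 difference was 0.12 ± 0.069 (SE). The other members with the smallest p above 0 were Mrpl38 (0.12), Mrps34 (0.12), Mrpl9 (0.15) and Mrps18b (0.14), with unadjusted p from 0.115 to 0.147.

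Only 9 members had a log2 difference below 0. Mrpl57, a large subunit protein specific to mitochondria, had the lowest at -0.11 ± 0.089 (SE, unadjusted p = 0.247 in limma). It had 689.9, 555, 611 and 607 normalized reads in Loxp replicates 1 to 4 and 577, 549, 634 and 524 in Cre replicates 1 to 4. Loxp replicate 1 was the highest library, and the other Loxp libraries lay among the Cre libraries. Mrpl22 (-0.057), Mrpl24 (-0.054), Mrps25 (-0.024), Mrps18a (-0.015) and Mrpl17 (-0.013) came next in order of p. Of these, Mrpl17, Mrpl22 and Mrpl24 sit around the exit of the tunnel through which the new protein leaves the ribosome. The sign of Mrpl17, Mrpl24, Mrps18a and Mrps25 turned when certain single libraries were left out.

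The stalk is the part of the large subunit that recruits translation factors. Its 3 tested members had log2 differences of 0.092 (Mrpl10), 0.081 (Mrpl11, at its base) and 0.11 (Mrpl12). Mrpl12, which forms the mobile stalk and also binds the mitochondrial RNA polymerase, had 1562, 1242, 1801 and 1493 normalized reads in Loxp replicates 1 to 4 and 1525, 1454, 1904 and 1660.3 in Cre replicates 1 to 4. Loxp replicate 2 was the lowest and Cre replicate 3 the highest of all, and the groups overlapped.

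Of the 10 central protuberance genes, 9 had a difference above 0, with a median of 0.056. Mrpl46 and Mrpl40, both specific to mitochondria, had differences of 0.11 and 0.015. Mrpl38 stood at 0.12, Mrpl48 at 0.10, Mrpl35 at 0.073, Mrpl27 at 0.028 and Mrpl33 at 0.011. Mrps30 and Mrps18a carry small subunit names but sit in the large subunit, and their differences were 0.039 and -0.015.

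Around the exit tunnel, 4 of 7 members lay above 0, with a median of 0.020. Mrpl45, which helps to anchor the ribosome to the inner membrane, had 1442, 1229.9, 1637 and 1466 normalized reads in Loxp replicates 1 to 4 and 1451, 1440.2, 1787 and 1666 in Cre replicates 1 to 4. Loxp replicate 2 lay lowest and Cre replicate 3 highest, and the log2 difference was 0.14 ± 0.098 (SE, unadjusted p = 0.19 in limma). Mrpl23, next to the tunnel exit, stood at 0.059, Mrpl44 at 0.020 and Mrpl47 at 0.085.

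In the small subunit, 4 of 5 genes of the decoding centre and messenger path lay above 0. Mrps12, whose bacterial counterpart monitors decoding, had 563, 556, 573 and 549.7 normalized reads in Loxp replicates 1 to 4 and 502, 569, 590.3 and 582 in Cre replicates 1 to 4. The Loxp libraries lay within the range of the Cre libraries, and the log2 difference was -0.0028 ± 0.075 (SE). Mrps24 stood at 0.10, Mrps11 at 0.11, Mrps7 at 0.075 and Mrps5 at 0.066. The S18 family has 3 genes in mammals, of which Mrps18c (0.090) and Mrps18b (0.14) act in the small subunit. Mrps36, an adaptor of the alpha-ketoglutarate dehydrogenase complex despite its name, had 385, 338, 444 and 412 normalized reads in Loxp replicates 1 to 4 and 361, 449.9, 475 and 483 in Cre replicates 1 to 4. Its groups overlapped, with a log2 difference of 0.16 ± 0.12 (SE).

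The members were also grouped by origin and by disease. Of 30 large subunit genes shared with bacteria, 26 lay above 0 (median 0.083), as did 17 of 19 tested large subunit genes specific to mitochondria (0.039). In the small subunit these were 15 of 16 (0.070) and 8 of 10 (0.093). Of 12 genes whose human counterparts are disease genes, 11 lay above 0 (0.068). None of these members passed the test, and differences between the groups of genes were not tested. The summed normalized reads of Mrpl over those of Mrps were 2.38 ± 0.047 in Loxp and 2.38 ± 0.048 in Cre (SD, n = 4 each).

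Across libraries the members moved together, and the largest deviations fell in 1 library of each group. In Loxp replicate 2, 49 of the 76 members (64.5%) had their lowest value, against 18.6% of all tested genes. In Cre replicate 3, 47 of 76 (61.8%) had their highest value, against 18.6%. The mean deviation of the 76 genes from their own 8-library means was -0.012, -0.16, 0.078 and -0.037 in Loxp replicates 1 to 4. In Cre replicates 1 to 4 it was -0.024, -0.017, 0.16 and 0.0077, all on the log2 scale. Loxp replicate 3 was the second highest library, with 66 of 76 members above their own mean, against 74 in Cre replicate 3 and 5 in Loxp replicate 2. The other 5 libraries lay within 0.037 of 0.

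**Figure D3:**
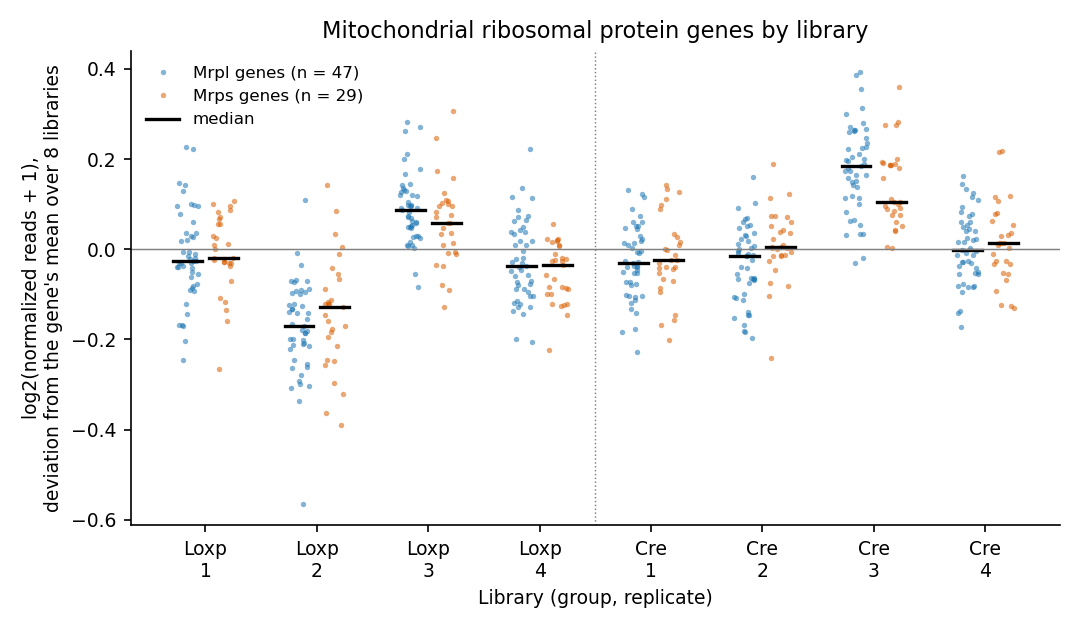
Deviation of each gene from its own mean over the 8 libraries, on the log2 scale, by library, for 47 Mrpl genes (blue) and 29 Mrps genes (orange), with medians as bars. Both sets lie lowest in Loxp replicate 2 and highest in Cre replicate 3.

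Over the 8 libraries, the median Pearson r of the 2850 pairs of members was 0.58, and 90.7% of pairs had r above 0. Over all pairs of tested genes the median was -0.0020, with 49.8% above 0. It was 0.61 among Mrpl genes, 0.48 among Mrps genes and 0.56 between the 2 sets. With the group means subtracted, the median was 0.56 over all members, 0.61 among Mrpl genes, 0.43 among Mrps genes and 0.54 between the sets. The first principal component held 63.6% of the members' variance, against 25.7% for all tested genes. The 22 mitochondrial aminoacyl-tRNA synthetase and amidotransferase genes reached 56.9% at a median r of only 0.16. This share alone therefore does not measure how far the genes of a set move together. All genes of a library share its depth and normalization. Without Loxp replicate 2 the median r was 0.44, and without Cre replicate 3 it was 0.43. Among other sets, the median r was 0.92 for 35 complex I subunit genes and 0.71 for 86 cytosolic ribosomal protein genes.

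Mrpl46, Mrpl54, Mrpl12, Mrps6 and Mrpl18 had the highest median r with the other members, from 0.73 to 0.75. Mrpl46 had 430.5, 368, 483 and 424 normalized reads in Loxp replicates 1 to 4 and 433, 443, 509 and 455 in Cre replicates 1 to 4. Mrpl18 had 2038, 1692, 2226 and 2053 normalized reads in Loxp replicates 1 to 4 and 1937, 2159, 2585 and 2064 in Cre replicates 1 to 4. In both, Loxp replicate 2 was lowest and Cre replicate 3 highest, with Loxp replicate 3 second. Mrps6, the counterpart of bacterial S6, was the member with the fewest reads, yet it stood among these 5. It had 145, 116, 149 and 131 normalized reads in Loxp replicates 1 to 4 and 138, 144, 159 and 136 in Cre replicates 1 to 4. Again the extremes were Loxp replicate 2 and Cre replicate 3.

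Mrpl14 had the widest range of all, 0.95 on the log2 scale, followed by Mrps33 (0.75), Mrpl34 (0.67), Mrpl47 (0.66) and Mrpl12 (0.62). The median range was 0.37 for members and 0.52 for all tested genes. Mrpl14, which lies at the face of the large subunit that meets the small one, had 679, 392, 639.9 and 606 normalized reads in Loxp replicates 1 to 4 and 495, 575, 758 and 574 in Cre replicates 1 to 4. Loxp replicate 2 was the lowest, with Cre replicate 1 next, and the groups overlapped. Mrps33, a small subunit protein, had 191, 160.0, 259.8 and 207 normalized reads in Loxp replicates 1 to 4 and 205, 215, 269 and 193 in Cre replicates 1 to 4. Loxp replicate 3 and Cre replicate 3 stood above the other 6 libraries.

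A few members did not follow the rest. Mrps10 (median r -0.23), Mrpl52 (-0.054), Mrps2 (-0.052), Mrpl22 (0.040) and Mrps34 (0.14) had the lowest values. Mrps10, the counterpart of bacterial S10, had 264, 278, 238 and 215 normalized reads in Loxp replicates 1 to 4 and 269, 249, 252 and 252 in Cre replicates 1 to 4. Its highest library was Loxp replicate 2, where most members were lowest. Mrpl52, a large subunit protein specific to mitochondria, had 362, 353, 369.6 and 448 normalized reads in Loxp replicates 1 to 4 and 421, 402, 379 and 349 in Cre replicates 1 to 4. Loxp replicate 4 was highest and Cre replicate 4 lowest. Mrpl22, which lines the exit tunnel, had 370.1, 383, 372 and 325 normalized reads in Loxp replicates 1 to 4 and 343, 320.3, 363 and 367 in Cre replicates 1 to 4. Its libraries ran largely opposite to those of Mrpl52, with r = -0.86 between them, the lowest of the 2850 pairs.

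Mrps2 had 469, 508, 499 and 440.4 normalized reads in Loxp replicates 1 to 4 and 529, 405, 479.6 and 516 in Cre replicates 1 to 4, and Cre replicates 1 and 2 were its highest and lowest libraries. Mrps34 had 528, 524, 506 and 508 normalized reads in Loxp replicates 1 to 4 and 592, 587, 562 and 514 in Cre replicates 1 to 4. The 3 highest libraries of Mrps34 were Cre replicates 1 to 3, and Cre replicate 4 lay within the Loxp range. On the gene's strand, 37.0% of its exon bases lie in Nme3, and 63.4% face Mapk8ip3 on the other strand. Of the 50-base stretches of Mrpl22, 33.4% also occur in Gm6997 transcripts on either strand, and 16.4% of those of Mrps10 in AC154457.3. For Mrpl52 and Mrps2 the share was 0%. The part of shared sequence in the low r was not tested. Low read numbers touch some of these genes: Mrps10 had 199 recovered reads in its lowest library, where counting alone gives a log2 SD of 0.10, against an SD of 0.11 over the 8 libraries. For Mrpl22 these were 0.089 and 0.096, and for Mrpl52 0.081 and 0.13. For Mrps6, whose r was high, they were 0.14 and 0.13. The part of counting error in the low r was not tested. The 38 members with fewer reads had a median of median r of 0.58, and the 38 with more reads 0.63.

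**Figure D4:**
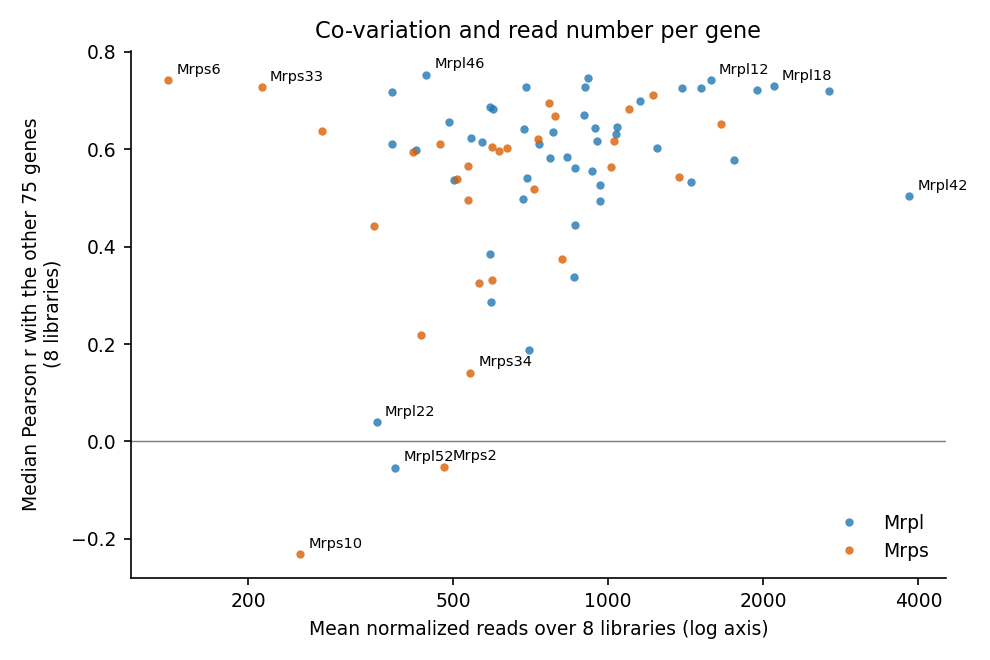
Median Pearson r of each gene with the other 75, over 8 libraries, against its mean normalized reads (log axis). Mrps10, Mrpl52 and Mrps2 lie below 0; the genes with the highest r include Mrps6, which has the fewest reads.

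The mean of the members tracked that of complex I, the first enzyme of the respiratory chain, which needs mitochondrially made subunits. The 35 complex I genes deviated by 0.0079, -0.27, 0.11 and -0.033 in Loxp replicates 1 to 4 and by -0.11, -0.019, 0.27 and 0.042 in Cre replicates 1 to 4. Pearson's r with the members' mean was 0.98 (Spearman's rho 0.98, n = 8 libraries), and 0.85 without Loxp replicate 2 and Cre replicate 3. The slope was 0.59 member units per complex I unit, so the members' mean spanned less than that of complex I. The summed reads of the members were 43.7% ± 2.28 of those of complex I in Loxp and 42.7% ± 2.42 in Cre (SD, n = 4 each), with 47.0% in Loxp replicate 2 and 40.2% in Cre replicate 3.

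Of the 21 relations computed across libraries, that with Myh2 gave r = 0.77 (rho 0.79), and 0.48 without Loxp replicate 2 and Cre replicate 1. The 2 libraries left out were, for each relation, those farthest out in the quantity set against the members. The 7 slow fibre markers gave r = 0.60 (rho 0.76), and 0.61 without Cre replicates 3 and 4. The 4 fast glycolytic markers gave -0.64 (rho -0.74), and -0.89 without Loxp replicate 3 and Cre replicate 4. The 6 adipocyte markers gave -0.39 (rho -0.048), and -0.054 without Loxp replicates 2 and 3. Myh1 gave 0.77, and 0.55 without Loxp replicate 2 and Cre replicate 1. The cytosolic ribosomal protein genes gave 0.71 (rho 0.48), and 0.62 without Cre replicates 3 and 4. The mean of 11 mitochondrial messenger RNAs, each weighted alike, gave 0.64, and 0.41 without Loxp replicate 2 and Cre replicate 1. These genes did not share 1 relation: COX1 gave 0.84, ND1 0.79 and CYTB 0.36, but ND2 -0.061, ND4 -0.085 and ND5 -0.37. ND3, COX2, COX3 and ATP6, also in this mean, had only 12.3 to 176 normalized reads per library. The 3 erythroid markers gave 0.59, and 0.42 without Cre replicates 3 and 4. Satellite cell, macrophage, endothelium, smooth muscle and fibroblast markers gave -0.49, -0.11, -0.20, -0.10 and 0.047. Without the 2 farthest libraries of each, these values were -0.39, -0.77, -0.69, -0.38 and 0.20. The mean of the 2 mitochondrial ribosomal RNAs gave -0.37, and -0.63 without Loxp replicate 3 and Cre replicate 1. Taken singly they had opposite signs, with r = -0.62 for mt-Rnr1 and 0.32 for mt-Rnr2. Loxp replicate 2, the library with the lowest members, had the fewest Myh2 reads and the most adipocyte marker reads. Cre replicate 3, with the highest members, had 2133 normalized reads of the slow myosin Myh7, but Cre replicate 4 had 7430.3 with a members' mean of 0.0077. The part of fibre type and fat in the members' deviations was not tested.

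**Figure D5:**
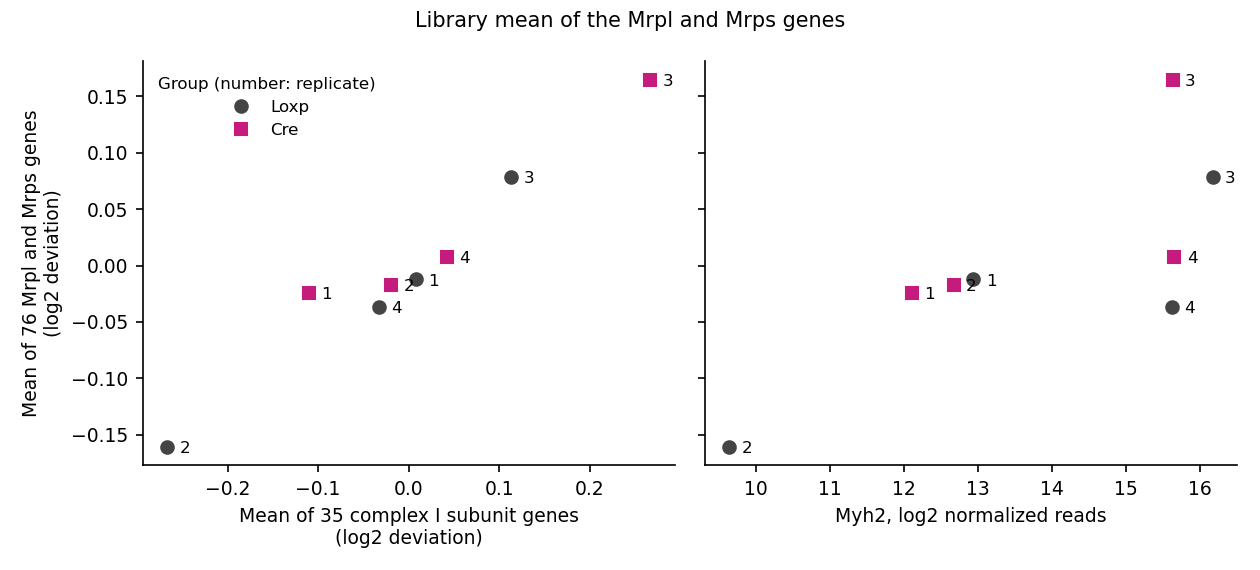
Mean log2 deviation of the 76 Mrpl and Mrps genes in each library against that of 35 complex I genes (left) and against log2 normalized reads of Myh2 (right), for Loxp (circles) and Cre (squares), numbered by replicate. Loxp replicate 2 lies at -0.16 and Cre replicate 3 at 0.16 on the vertical axis.

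Of the 13562 tested genes that are no members, those most like the members' mean over the 8 libraries were Cox7a2l, Bola3, Ndufb2, Ndufa6, Ndufv2, Ndufs7, Exoc6, S100a1, Timm44 and Slc25a11, with Pearson r from 0.98 to 0.99. Ndufb2, Ndufa6, Ndufv2 and Ndufs7 encode complex I subunits, Cox7a2l a factor of respiratory supercomplexes, Timm44 a part of the import motor and Slc25a11 the oxoglutarate carrier. Among these 13562 genes, 20.8% had r above 0.5 with the members' mean, and 65 of 76 members (85.5%) had r above 0.5 with the mean of the other members.

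The rest of the mitochondrial translation system was read in the same way. The 6 ribosomal proteins with other names (Dap3, Ptcd3, Aurkaip1, Chchd1, Gadd45gip1 and Ict1) all had log2 differences above 0, from 0.030 to 0.10, and 0 passed. Dap3, a GTP-binding protein of the small subunit, had 1228, 1142, 1357 and 1234 normalized reads in Loxp replicates 1 to 4 and 1253, 1264, 1463 and 1208 in Cre replicates 1 to 4. Its lowest and highest libraries were again Loxp replicate 2 and Cre replicate 3. Of 24 assembly factors, 15 lay above 0 and 0 passed over all genes. Malsu1, which binds Mrpl14 and keeps the subunits apart during assembly, had 774, 689, 805 and 733 normalized reads in Loxp replicates 1 to 4 and 908, 984, 866 and 806 in Cre replicates 1 to 4. All Cre libraries lay above all Loxp libraries, as in 0.924% of all tested genes, but Loxp replicate 3 and Cre replicate 4 nearly met. The log2 difference was 0.25 ± 0.081 (SE; limma, unadjusted p = 0.0108, adjusted p = 0.9995).

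Of 15 tested translation factors, 13 lay above 0, and of 22 mitochondrial aminoacyl-tRNA synthetase and amidotransferase genes 14, with 0 passing in either list. Lars2, which charges the mitochondrial leucine tRNA, ran against the members, with r = -0.86 to their mean. It had 905, 1247, 707 and 1372 normalized reads in Loxp replicates 1 to 4 and 806, 853, 549 and 879 in Cre replicates 1 to 4. Loxp replicates 2 and 4 were highest and Cre replicate 3 lowest, and the log2 difference was -0.43 ± 0.21 (SE, unadjusted p = 0.0607 in limma). Sequence shared with other genes was checked for the members only, not for Lars2. For 10 genes of mitochondrial transcription and DNA maintenance, 6 lay above 0. The mean of these 10 had r = 0.18 with that of the members, and -0.60 without Loxp replicates 2 and 4, so the sign rested on those libraries. The other lists gave r = 0.98 (other-named proteins), 0.96 (assembly), 0.96 (translation factors) and 0.83 (synthetases). Without Loxp replicate 2 and Cre replicate 3 these were 0.87, 0.94, 0.92 and 0.13, so the relation with the synthetases rested on those libraries. Of the 35 complex I genes, 32 lay above 0 and 0 passed.

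Promoter windows were available for 67 of the 76 members, in 73 windows of 250 bases before to 50 after the RefSeq start (GRCm38.p6), since some genes have more than 1 start. Nuclear genes for mitochondrial proteins are known targets of ETS factors such as GABPA, of NRF1 and of YY1, so these letters were searched on both strands. The ETS letters CCGGAAG stood in 32.9% of the members' windows, 16.5% of those of all tested genes and 8.86% of all windows. For NRF1, the core letters GCATGCG stood in 11.0%, 6.05% and 3.58% of them, and GCNTGCG, which includes these, in 35.6%, 28.8% and 16.4%. AAGATGG, for YY1, stood in 17.8%, 6.93% and 6.34%. TATAAA was in 6.85% of the members' windows, 7.41% of those of all tested genes and 13.6% of all windows, and CCAAT in 39.7%, 37.1% and 37.4%. The letters AAGGTCA of oestrogen-related receptors were in 5.48%, 3.22% and 4.72%. These cores of the NRF1, YY1 and receptor letters were chosen after longer forms had been searched and their values seen. The median GC content was 58.3% in the members' windows and 60.7% in those of all tested genes.

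Split at the median of r with the other members, ETS letters were in 15 of the 33 genes with lower r and 9 of the 34 with higher r, YY1 letters in 10 and 3, GCATGCG in 4 and 4, and GCNTGCG in 10 and 16. Such letters are a description, not a binding site. To show members that moved with the rest beside members that did not, the 250 bases before the RefSeq start are given, 5′ to 3′ on the gene's strand. Capitals mark the ETS, NRF1 and YY1 letters on either strand. Of genes with high r, Mrpl12 (chr11:120484387-120484636, plus strand), Mrpl45 (chr11:97315466-97315715, plus strand) and Mrpl32 (chr13:14613038-14613287, minus strand) hold GCNTGCG, and Mrpl18 (chr17:12916092-12916341, minus strand) holds the ETS letters. Mrpl32, which encodes a large subunit protein shared with bacteria, was chosen after the search. Of genes with low r, Mrpl52 (chr14:54426659-54426908, plus strand) holds the ETS and YY1 letters, and Mrps10 (chr17:47368947-47369196, plus strand) holds none of these in the 250 bases. The printed genes are examples, and others differ. Mrpl46 (median r 0.75) has no ETS, NRF1 or YY1 letters in its window, and Mrpl22 (0.040) has those of ETS and GCATGCG.
Mrpl12: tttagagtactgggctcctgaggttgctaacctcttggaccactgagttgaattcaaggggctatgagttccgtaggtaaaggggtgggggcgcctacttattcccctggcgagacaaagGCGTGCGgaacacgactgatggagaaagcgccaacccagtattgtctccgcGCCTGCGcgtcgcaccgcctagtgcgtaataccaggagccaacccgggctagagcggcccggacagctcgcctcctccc
Mrpl18: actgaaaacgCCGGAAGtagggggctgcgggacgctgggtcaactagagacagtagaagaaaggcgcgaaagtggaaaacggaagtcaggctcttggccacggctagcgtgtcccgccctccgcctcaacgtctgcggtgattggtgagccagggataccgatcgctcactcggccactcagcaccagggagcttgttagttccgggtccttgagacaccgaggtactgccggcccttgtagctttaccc
Mrpl45: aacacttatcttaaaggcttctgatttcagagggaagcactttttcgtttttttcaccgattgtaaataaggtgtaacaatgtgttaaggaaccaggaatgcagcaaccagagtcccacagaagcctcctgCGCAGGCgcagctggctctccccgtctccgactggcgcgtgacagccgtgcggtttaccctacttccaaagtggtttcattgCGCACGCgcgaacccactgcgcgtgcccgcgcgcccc
Mrpl32: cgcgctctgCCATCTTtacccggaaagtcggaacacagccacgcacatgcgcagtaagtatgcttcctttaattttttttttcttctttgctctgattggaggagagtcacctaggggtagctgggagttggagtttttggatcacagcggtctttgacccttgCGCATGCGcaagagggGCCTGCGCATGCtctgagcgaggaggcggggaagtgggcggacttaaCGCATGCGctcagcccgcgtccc
Mrpl52: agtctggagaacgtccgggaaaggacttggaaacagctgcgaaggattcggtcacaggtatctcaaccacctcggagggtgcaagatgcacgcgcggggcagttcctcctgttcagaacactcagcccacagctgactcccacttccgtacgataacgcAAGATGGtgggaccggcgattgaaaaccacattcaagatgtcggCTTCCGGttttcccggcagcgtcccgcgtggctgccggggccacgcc
Mrps10: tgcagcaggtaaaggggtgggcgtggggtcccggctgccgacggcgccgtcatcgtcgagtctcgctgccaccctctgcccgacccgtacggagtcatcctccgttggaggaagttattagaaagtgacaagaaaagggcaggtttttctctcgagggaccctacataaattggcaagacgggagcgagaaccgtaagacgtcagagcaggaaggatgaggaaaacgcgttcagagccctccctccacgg
The capitals begin 130 and 79 bases before the start of Mrpl12, 119 and 37 before that of Mrpl45 and 240 before that of Mrpl18. In Mrpl32 they begin 241 (YY1), 86, 70 and 23 bases before it, and in Mrpl52 91 (YY1) and 47 (ETS). The ETS letters thus stood before the RefSeq start of a gene with high r (Mrpl18) and of a gene with r near 0 (Mrpl52). GENCODE places some of these starts elsewhere. By its bounds, the printed bases of Mrps10 (gene start 47368887) and Mrpl18 (minus strand, gene end 12916345) lie wholly inside the gene. In Mrpl32 (minus strand, gene end 14613165) the letters at 86, 70 and 23 bases also lie inside the gene. Which start the muscle used was not tested.

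The 76 members lie on 17 chromosomes, with 10 on chromosome 11 and 8 on chromosome 17 (GENCODE M21, GRCm38). Mrpl46 (chr7:78775236-78783531, minus strand) and Mrps11 (chr7:78783119-78792989, plus strand) are transcribed away from each other and overlap at their starts. Their r was 0.55, near the median of all pairs, and Mrps11 had 350.0, 322, 320.0 and 355 normalized reads in Loxp replicates 1 to 4 and 327, 351, 402 and 379 in Cre replicates 1 to 4. Its highest library was Cre replicate 3, as for Mrpl46, but its lowest was Loxp replicate 3 and not Loxp replicate 2. The highest r of all pairs, 0.98, was that of Mrpl2 (chromosome 17) and Mrpl30 (chromosome 1).

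Mrpl53, a protein at the base of the stalk, was the only gene outside the filter, with 0 reads in 7 libraries and 2 in Loxp replicate 4. In the annotation, 88.0% of its exon bases lie in Gm42688 on the same strand, and 100% of its 50-base stretches occur in another gene's transcripts. Gm42688 itself had 1 to 10 reads per library. No level of Mrpl53 is given. The members nearest the filter on its inner side were Mrps6 (lowest library 116 normalized reads), Mrps33 (160.0) and Mrps10 (215), all far above 10.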

How the data were processed

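RNA of white quadriceps from 8 mice, 4 per group, was sequenced from stranded libraries, per the labels. The submitters' processing notes name STAR, HTSeq, cutadapt, FastQC and DESeq2, with no version, and the build GRCm38; no annotation used for counting is stated there. The authors deposited values on a log2 scale, log2(x + 1), with x a read count scaled by a factor of each library. The values themselves show this, since 100% of low x lay within 0.1 of a whole number of reads, and so gave the depths. A normalized read is x.

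Groups were compared with limma 3.58.1 (R 4.3.3; trend) on the log2 values of the 13638 genes that reached 10 normalized reads in 4 or more libraries, with Benjamini-Hochberg adjustment and a threshold of 0.05. The labels give each library an animal number and name no batch. No 2 libraries of a group agreed within sampling noise. The fit was tested on simulated data. Lengths and positions came from GENCODE M21, promoter windows from RefSeq. Named genes were the extremes in level, p, correlation and range, plus lists by role. Members and lists were chosen with earlier results of these data known, and Ict1 was added to its list after the table was seen. Alternatives were pseudocounts, filters, scalings, library weights, limma-voom, a block for adjacent animal numbers and left-out libraries.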

Additional observations from a re-analysis of the deposited data

Results flagged for a closer look

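In 3 results, 1 library stood apart from the other 3 of its group. The mean of the 76 genes in Cre replicate 3 was 0.16 above its 8-library mean on the log2 scale, away from the other Cre libraries. Mrpl23, next to the tunnel exit, had 443 normalized reads in Cre replicate 3 and 365 to 375 in the other Cre libraries. Mrps10 had 269 normalized reads in Cre replicate 1 and 249 to 252 in the other Cre libraries. Chance marks about 1 in 20 groups of 4 in this way, and over all members it was 5 of 152 groups.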

How the results depend on the processing

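Under every alternative run, 2 genes in all and 0 members passed. With 1 library left out, the members' median difference ran from 0.023 to 0.11 and the number above 0 from 50 to 73; the median pairwise correlation ran from 0.43 to 0.63. Up to 3 members then had an unadjusted p under 0.05 (without Cre replicate 1). With libraries left out, Mrps25 ran from -0.068 to 0.0075, Mrps18a from -0.059 to 0.024, Mrpl24 from -0.10 to 0.027 and Mrpl17 from -0.039 to 0.016. Leaving out both Loxp replicates 2 and 3, the libraries with most adipocyte markers, gave a median correlation of 0.46, and Mrpl22 (0.0045) and Mrpl24 (0.036) changed sign. Leaving out both Cre replicates 3 and 4, those with most slow fibre markers, gave a median difference of 0.021, 46 members above 0 and -0.022 for Mrpl12. Both were chosen after seeing the data; the cause was not tested. A median correlation was called the same within 0.1, a limit set by hand. With a block for adjacent animal numbers the median difference was 0.068 and 67 members lay above 0; correlations of 0.15, -0.083, 0.19 and -0.081 between the animals did not show that the numbers pair them. Library weights gave 57 above 0.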
